A study of Mus musculus with 24 samples.

Results

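The 10 genes described here are Cdh1, Epcam, Krt8, Krt18, Krt19, Evpl, Ppl, Cnfn, Lama3 and Sfn, out of 24537 genes in the count table. All 10 symbols were found in the table. All are known from epithelia, and some, among them Cnfn, Evpl and Lama3, were selected on their measured rise in Cre+ EDL muscle, so every value of these genes in Cre+ EDL libraries is given as a description without a test. The question behind the choice is whether a muscle that expresses the reprogramming factors turns on a complete or a partial set of epithelial genes. A split among the 10 in Cre+ EDL was built into this choice, so it does not answer the question.

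Epithelial cells hold together through E-cadherin junctions and desmosomes, carry a skeleton of paired type I and type II keratins, and anchor to the basement membrane through laminin. Stratified epithelia such as epidermis add a cornified envelope, a protein shell cross-linked under the plasma membrane. In fibroblast reprogramming by Oct4, Sox2, Klf4 and Myc (OSKM), a mesenchymal-to-epithelial transition is known as an early step, in which Cdh1, Epcam and simple-epithelium keratins come on while Snai, Zeb and Cdh2 go down. Myofibres are neither epithelial nor fibroblasts.

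RNA was sequenced from the extensor digitorum longus (EDL), a mainly fast-twitch muscle, and the soleus (SOL), a mainly slow-twitch muscle, of 2-month-old mice. Acta1-Cre+/4Fhet mice (Cre+) and Acta1-Cre-/4Fhet mice (Cre-, controls) both carried the doxycycline-inducible 4F cassette, and both were given doxycycline in the drinking water (1 mg/ml), with muscles taken after 2.5 days, 5.5 days or 8.5 days. The Acta1 promoter drives Cre in myofibres, so the transactivator that the cassette needs is unblocked only there. Each of the 12 groups of muscle, genotype and day held 2 libraries, 24 in all. The labels do not say which animal a library came from, and the p-values measure only the spread between these libraries.

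The libraries held between 36088781 and 54679082 counted reads. Levels are given as reads counted, or as FPKM, the count divided by exon length in kilobases and scaled to the counted reads of that library. The cassette was on in Cre+ EDL at 2.5 days, where Pou5f1, the gene of Oct4, reached 17.5 and 70.5 FPKM against 0.0673 and 0.0163 FPKM in Cre-. At 8.5 days Pou5f1 was at 76.2 and 57.7 FPKM in Cre+ EDL. In Cre+ SOL it was lower, at 5.02 and 9.62 FPKM at 2.5 days and 12.2 and 6.19 FPKM at 8.5 days. At 5.5 days Pou5f1 was at 1.02 and 27.7 FPKM in Cre+ EDL and at 0.0785 and 0.387 FPKM in Cre+ SOL, so that 3 of these 4 libraries lay below every Cre+ library of the other days, and their values are given separately. The summed level of 9 myofibre markers was between 38158 and 45952 FPKM in Cre+ EDL of 2.5 and 8.5 days and between 58921 and 70103 FPKM in the Cre- EDL of those days. In whole muscle, fewer cells of a type and less RNA per cell cannot be told apart.

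In Cre+ EDL at 2.5 days the 10 genes split. Cnfn, Krt8, Evpl and Lama3 stood far above the controls, Sfn stood above them by less, and Cdh1, Epcam, Krt18, Krt19 and Ppl overlapped with them. Both Cre+ libraries lay above both Cre- libraries for 5 of the 10 genes, beside 52.1% of all genes tested, so nothing is read from the count. At 8.5 days both Cre+ libraries lay above both controls for 5 genes again (40.3% of genes tested) and below them for 1 gene, Epcam (15.5%). Epcam did not pass the count filter. The median log2 fold change of the other 9 was 1.10 at 2.5 days and 0.35 at 8.5 days (-0.05 and -0.02 over all genes tested), a description of values that the choice of genes used, from which nothing is read and which ran from 0.36 to 5.72 at 2.5 days under other filters or with a library left out.

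**Figure D1:**
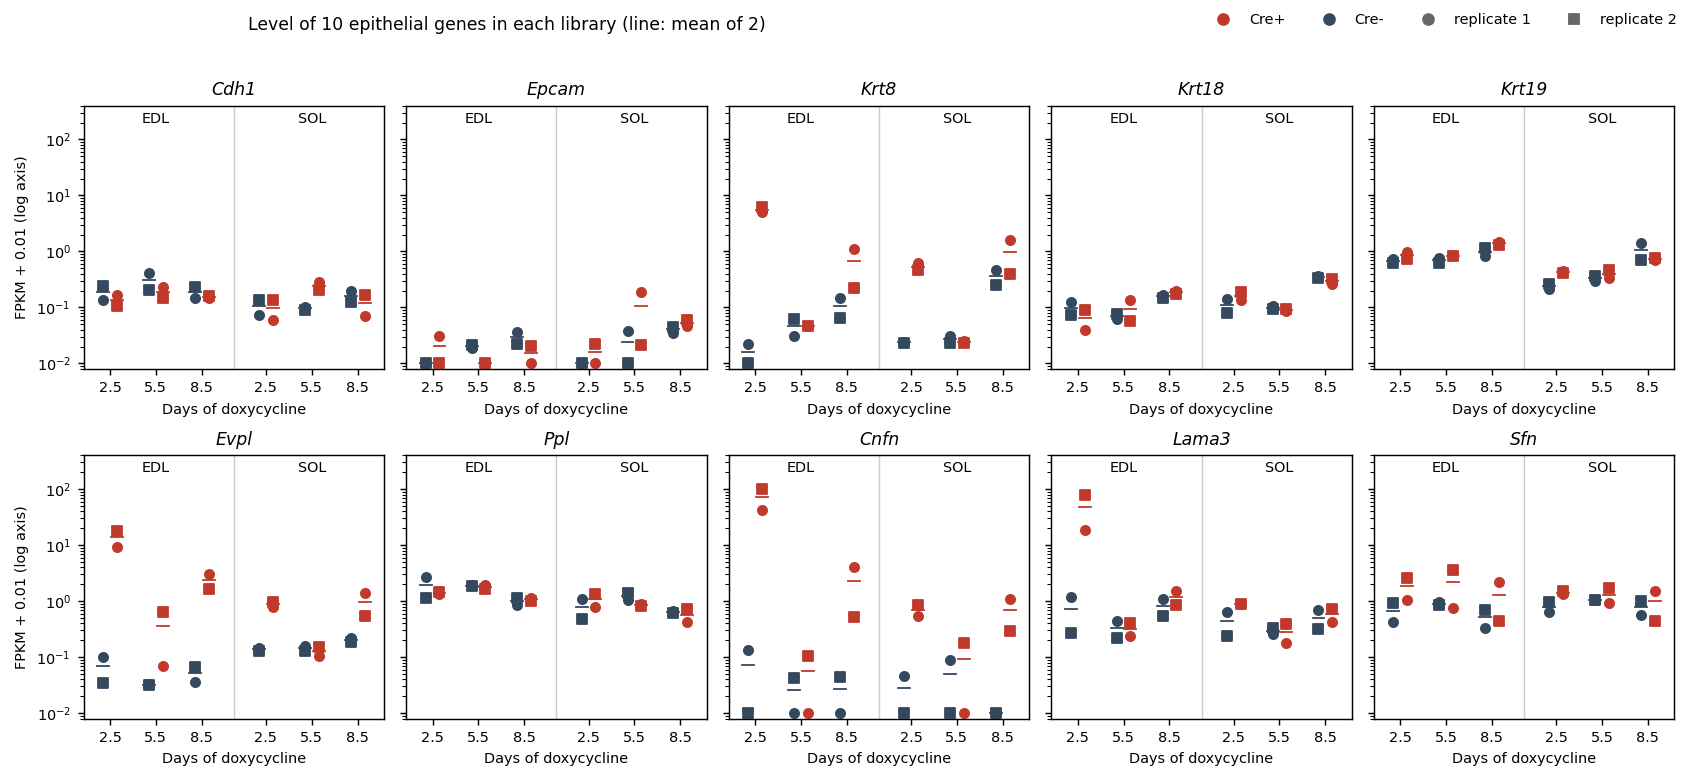
FPKM of each of the 10 genes (plus 0.01, log axis) in all 24 libraries by muscle and days of doxycycline, with Cre+ in red, Cre- in dark grey-blue, circles for replicate 1, squares for replicate 2 and a short line at the mean of 2. Cnfn, Lama3, Evpl and Krt8 sit far above the controls in EDL at 2.5 days, while Cdh1, Epcam, Krt18, Krt19 and Ppl stay near them.

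Cdh1 (E-cadherin, chr8:106603350-106670247, plus strand, mm10) is the defining adhesion molecule of epithelia. It was low in every library, between 0.0489 and 0.398 FPKM with a median of 0.137 FPKM over the 24. In EDL at 2.5 days it stood at 33 and 19 reads in Cre+ and at 25 and 47 reads in Cre-. At 8.5 days it stood at 32 and 32 reads in Cre+ and at 22 and 41 reads in Cre-. The groups overlapped at both days, and the ratio of pooled counts, corrected for library size, was 0.704 at 2.5 days (exact 95% interval 0.483 to 1.02) and 0.784 at 8.5 days (0.545 to 1.13). These intervals, like all intervals on pooled counts below, cover counting error only. The ratios and FPKM are scaled by library total alone. Over all genes tested, that scaling gave a median log2 fold change in EDL of 0.28 at 2.5 days and 0.16 at 8.5 days.

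Epcam (chr17:87635979-87651127, plus strand), a surface adhesion molecule of simple epithelia and of pluripotent cells, was nearly absent. Only 41 reads were counted over the 24 libraries, and 14 of them came from a single Cre+ SOL library of 5.5 days. In EDL at 2.5 days it had 2 and 0 reads in Cre+ and 0 and 0 in Cre-, and at 8.5 days 0 and 1 in Cre+ and 2 and 1 in Cre-. Both groups lie at or under 3 reads, so no fold change is given, and a difference was not detectable at this depth.

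Krt8 and Krt18 encode the type II and type I keratin that pair in simple epithelia. They are neighbours on chromosome 15 and are transcribed away from each other, Krt8 at chr15:101996711-102004342 on the minus strand and Krt18 at chr15:102028216-102032026 on the plus strand, with 23874 bases between their start sites. The 250 bases before each start are shown because the genes behaved differently (chr15:102004343-102004592, minus strand, and chr15:102027966-102028215, plus strand, RefSeq, GRCm38.p6), with a CACCTG box, the E2-box that Snai and Zeb repressors bind, in capitals on either strand.
Krt8: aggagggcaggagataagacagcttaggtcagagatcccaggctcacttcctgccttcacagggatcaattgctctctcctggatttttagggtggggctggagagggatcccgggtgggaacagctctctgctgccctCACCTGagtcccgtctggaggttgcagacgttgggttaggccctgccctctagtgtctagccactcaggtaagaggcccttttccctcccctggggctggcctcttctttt
Krt18: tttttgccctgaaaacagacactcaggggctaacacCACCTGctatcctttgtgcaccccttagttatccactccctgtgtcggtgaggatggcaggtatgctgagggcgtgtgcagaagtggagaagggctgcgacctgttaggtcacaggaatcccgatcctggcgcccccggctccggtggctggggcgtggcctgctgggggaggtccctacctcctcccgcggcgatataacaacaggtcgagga

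Krt8 was counted 425 and 494 times in Cre+ EDL at 2.5 days and 1 and 0 times in Cre-. The pooled ratio was 895-fold (160 to 35405), an interval set by a single control read. Krt18 was counted 2 and 5 times in the same Cre+ libraries and 7 and 4 times in the controls, with a ratio of 0.620 (0.204 to 1.75). The Krt8 groups did not overlap, and the Krt18 groups did. At 8.5 days Krt8 had 104 and 18 reads in Cre+ EDL against 9 and 4 in Cre- (7.24-fold, 4.08 to 13.99), while Krt18 had 14 and 11 against 8 and 8 (1.21-fold, 0.619 to 2.42). Over all 24 libraries Krt8 ran from 0 to 494 reads and Krt18 from 2 to 22. The exons of Krt8 overlap those of Gm36026, annotated on the opposite strand in GENCODE. The labels call the libraries stranded, but whether the counting used strand is not given in the sources used here, so their reads cannot be told apart. GENCODE also lists a pseudogene Krt8-ps, which is not in the count table.

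**Figure D2:**
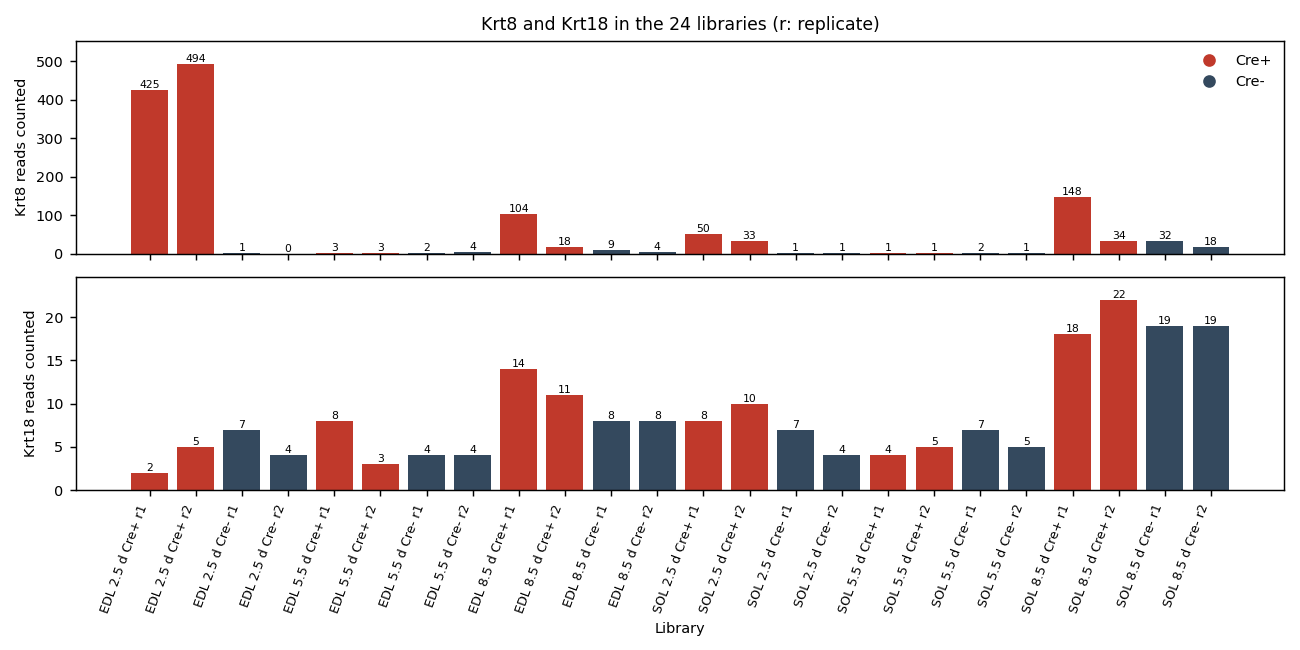
Reads counted for Krt8 (top) and Krt18 (bottom) in each of the 24 libraries, Cre+ in red and Cre- in dark grey-blue, with separate vertical axes. Krt8 reaches 425 and 494 reads in Cre+ EDL of 2.5 days, where Krt18 has 2 and 5, and the highest Krt18 counts (18 to 22) are in the SOL libraries of 8.5 days in both genotypes.

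Krt19 (chr11:100140811-100145926, minus strand), the smallest type I keratin and a partner of Krt8 in ducts, was already present in control muscle. It stood at 0.959 and 0.723 FPKM in Cre+ EDL at 2.5 days and at 0.726 and 0.607 FPKM in Cre-, which overlapped. At 8.5 days it stood at 1.48 and 1.29 FPKM in Cre+ and at 0.807 and 1.14 FPKM in Cre-, a pooled ratio of 1.41 (1.11 to 1.81). Both type I partners thus lay below Krt8 itself in Cre+ EDL at 2.5 days, when Krt8 was at 4.95 and 6.21 FPKM.

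The cornified-envelope genes held the highest value and a flat one. Cnfn (cornifelin, chr7:25367616-25369724, minus strand), a small protein of the envelope, went from 4 and 0 reads in Cre- EDL at 2.5 days to 1445 and 3212 reads in Cre+, which is 42.2 and 101 FPKM. The pooled ratio was 1134-fold (443 to 4165). Cnfn ranked at position 969 of 24537 genes by mean FPKM in Cre+ EDL at 2.5 days and at position 14914 in Cre-. At 8.5 days it had 153 and 17 reads in Cre+ and 0 and 1 in Cre- (131-fold, 23.2 to 5211). The groups did not overlap at either day. The 250 bases before its start are shown as those of the gene with the highest level (chr7:25369725-25369974, minus strand, RefSeq, GRCm38.p6), with a GGGTGTG box, a core that Klf4 binds, in capitals.
Cnfn: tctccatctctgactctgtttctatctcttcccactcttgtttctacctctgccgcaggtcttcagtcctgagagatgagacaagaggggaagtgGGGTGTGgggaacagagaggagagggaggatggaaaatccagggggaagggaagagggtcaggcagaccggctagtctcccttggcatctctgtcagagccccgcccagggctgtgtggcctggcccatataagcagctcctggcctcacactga

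Evpl (envoplakin, chr11:116220559-116238091, minus strand) and Ppl (periplakin, chr16:5086291-5132481, minus strand) are plakins that form a heterodimer and scaffold the envelope. Evpl stood at 9.17 and 18.2 FPKM in Cre+ EDL at 2.5 days and at 0.0924 and 0.0241 FPKM in Cre- (234-fold, 167 to 341). At 8.5 days it stood at 3.08 and 1.66 FPKM in Cre+ and at 0.0261 and 0.0568 FPKM in Cre- (56.7-fold, 37.0 to 91.8). Ppl, its partner, did not follow: it had 403 and 406 reads in Cre+ EDL at 2.5 days and 751 and 319 in Cre-, and 380 and 299 against 193 and 287 at 8.5 days. The Evpl groups were separate at both days. For Ppl they overlapped at 2.5 days, and at 8.5 days the FPKM values of 1.15 and 1.01 in Cre+ overlapped with 0.855 and 1.11 in Cre-.

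At 5.5 days in EDL both Cre+ libraries lay above both controls for 2 of the 10 genes (34.8% of genes tested). Evpl had 18 and 183 reads in Cre+ against 8 and 6 in Cre- (15.3-fold, 8.91 to 28.5), Krt19 stood narrowly above, at 0.843 and 0.821 FPKM against 0.759 and 0.607 FPKM, and Epcam had 0 and 0 reads against 1 and 1. The higher Evpl count came from the replicate with the higher Pou5f1. In that library Sfn had 260 reads, its highest value in the series, but Krt8 and Cnfn had 3 reads each.

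Sfn (14-3-3 sigma, chr4:133600556-133602168, minus strand) is a p53 target that keratinocytes use in differentiation. Its pooled ratio in EDL was 2.68 (2.12 to 3.42) at 2.5 days and 2.62 (1.97 to 3.51) at 8.5 days. At 5.5 days the ratio was 2.39 (1.95 to 2.93), with overlapping groups. Sfn stood at 1.05 and 2.61 FPKM in Cre+ EDL at 2.5 days and at 0.408 and 0.926 FPKM in Cre-, which were close but did not overlap. At 8.5 days 2.15 and 0.432 FPKM in Cre+ overlapped with 0.327 and 0.674 FPKM in Cre-. The 2 Cre+ replicates differed 4.99-fold there, more than the 2.62-fold ratio between the genotypes.

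Lama3 encodes the alpha-3 chain of laminin-332, which joins the beta-3 chain (Lamb3) under epithelial cells. It was counted 9276 and 35115 times in Cre+ EDL at 2.5 days and 526 and 122 times in Cre-, which is 18.9 and 77.2 FPKM against 1.16 and 0.261 FPKM (66.7-fold, 61.8 to 72.2). By 8.5 days it was back among the controls, at 1.48 and 0.838 FPKM in Cre+ and at 1.07 and 0.524 FPKM in Cre-. Its exons overlap those of Gm29200 on the opposite strand. Ttc39c, the next gene downstream on the same strand, 60521 bases away, went from a mean of 1.10 to 12.9 FPKM at 2.5 days, whereas Ankrd29 on the other side stood at 0.653 and 0.552 FPKM.

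Lamb3 was tested, since it is not among the 10 genes. It had 47 and 30 reads in Cre+ EDL at 2.5 days and 29 and 19 in Cre- (log2 fold change 0.31 ± 0.43 SE, adjusted p = 0.625), and the test was not passed at 8.5 days either, with 147 and 80 against 53 and 76 (0.24 ± 0.37, adjusted p = 0.723). At 2.5 days Lama3 was at 18.9 and 77.2 FPKM while Lamb3 was at 0.246 and 0.170 FPKM.

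Between days, Lama3, Cnfn, Krt8 and Evpl were lower at the later day, where the mean levels of the cassette genes were higher. The libraries of the days overlapped for each of Pou5f1, Sox2, Myc and Klf4. Mean FPKM in Cre+ EDL at 2.5 days was 41.4 times that at 8.5 days for Lama3, 31.7 times for Cnfn, 8.56 times for Krt8 and 5.77 times for Evpl. For Pou5f1 the same ratio was 0.658 and for Sox2 0.743. It was 1.41 for Sfn, 1.31 for Ppl, 0.875 for Cdh1, 0.607 for Krt19 and 0.312 for Krt18. Within the 2.5-day pair, replicate 2 exceeded replicate 1 by 4.02-fold for Pou5f1, 4.09-fold for Lama3, 2.40-fold for Cnfn, 1.99-fold for Evpl and 1.25-fold for Krt8. For Lama3, Cnfn, Krt8 and Evpl both libraries of 2.5 days lay above both of 8.5 days, although replicate 1 of 2.5 days had the lowest Pou5f1 of these 4 libraries. This holds over 2 libraries a day and was not tested.

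**Figure D3:**
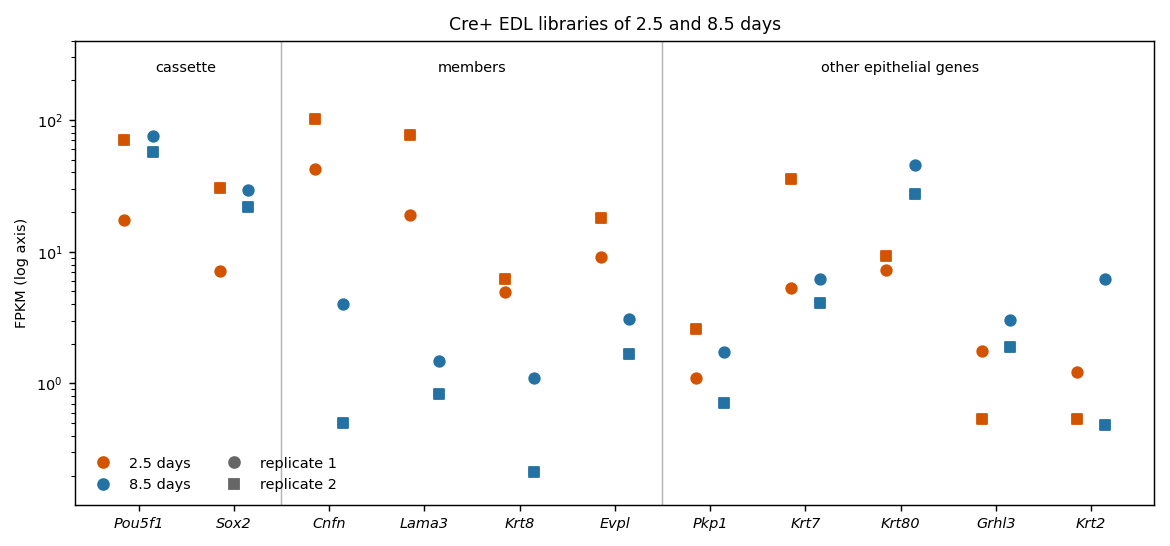
FPKM (log axis) in the 4 Cre+ EDL libraries of 2.5 days (orange) and 8.5 days (blue), circles for replicate 1 and squares for replicate 2, for 2 cassette genes, 4 members and 5 other epithelial genes. Cnfn, Lama3, Krt8 and Evpl lie higher at 2.5 days in both replicates, Krt80 and Grhl3 lie higher at 8.5 days, and the remaining epithelial genes overlap.

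In SOL, where the cassette was weaker, the comparison of Cre+ with Cre- was tested, because the choice of genes did not name it. It is not independent of that choice. Same-numbered EDL and SOL libraries deviated together, and the fit shares its estimate of spread with the EDL libraries. edgeR's quasi-likelihood test called none of the 9 members tested at any day (0 at 2.5, 5.5 and 8.5 days), beside 0.384%, 0% and 0.631% of all genes tested. Cnfn, among the 9, passed the count filter only through Cre+ libraries, with at most 4 reads in any Cre- library. At an unadjusted p under 0.05 there were 3, 1 and 2 members, beside 2053 of 15372, 597 of 15478 and 1015 of 15372 genes. DESeq2 called 2 members at 2.5 days, where it called 181 genes higher and 184 lower of 13414. It called 0 members and 0 genes at 5.5 days, and 1 member at 8.5 days beside 108 genes higher and 63 lower of 16842.

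Evpl came closest. It had 225 and 252 reads in Cre+ SOL at 2.5 days and 34 and 31 in Cre-, and 454 and 172 against 52 and 47 at 8.5 days. The groups did not overlap at either day. The log2 fold change was 2.59 ± 0.53 SE at 2.5 days (adjusted p = 0.0662, 8.22e-10 to 0.379 over the alternatives) and 2.24 ± 0.50 at 8.5 days (adjusted p = 0.0890, 0.00114 to 0.850). DESeq2 on the same libraries gave adjusted p = 0.00358 and 0.0254, and leaving out Cre+ SOL 8.5 d replicate 2 gave 0.0348 in edgeR.

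Krt8 had 50 and 33 reads in Cre+ SOL at 2.5 days and 1 and 1 in Cre- (37.9-fold, 10.2 to 318), with adjusted p = 0.111 in edgeR (0.00512 to 0.482 over the alternatives) and 0.00512 in DESeq2. At 8.5 days it had 148 and 34 reads in Cre+ and 32 and 18 in Cre- (2.86-fold, 2.08 to 3.99), with adjusted p = 0.808. FPKM values overlapped at 8.5 days, where 0.381 in Cre+ lay below 0.466 in Cre-.

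Cnfn had 18 and 25 reads in Cre+ SOL at 2.5 days against 1 and 0 in Cre- (39.2-fold, 6.67 to 1585), with adjusted p = 0.290. At 8.5 days it had 41 and 10 reads against 0 and 0, at least 13.3-fold higher with the Cre- libraries together set at 3 reads, and adjusted p = 0.461. Both Cre+ libraries lay above both Cre- libraries for 6 of the 10 members at 2.5 days (43.8% of genes tested) and for none below (10.5%). At 8.5 days they lay above for Epcam, Evpl and Cnfn (3 of 10, 21.3%) and below for Krt18 (1 of 10, 14.5%).

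Lama3, the gene with the most reads among the 10 in Cre+ EDL, stood at 0.885 and 0.881 FPKM in Cre+ SOL at 2.5 days and at 0.630 and 0.228 FPKM in Cre- (log2 fold change 0.88 ± 0.76, adjusted p = 0.665). Krt18 had 8 and 10 reads against 7 and 4 (adjusted p = 0.785), and Cdh1 10 and 23 against 11 and 23 (adjusted p = 0.887). The FPKM values of Cdh1 and Krt18 overlapped in SOL, as they did in EDL at 2.5 days, while the Lama3 groups lay apart by less than the gap between the 2 controls. At 5.5 days, with Pou5f1 at 4 and 22 reads, Cdh1 had 45 and 36 reads in Cre+ SOL against 22 and 15 in Cre- (unadjusted p = 0.0294, adjusted p = 1), and the 14 Epcam reads lay in the first of these libraries. Cdh1 was the 1 gene of 10 above both controls there (26.5% of genes tested) and Ppl the 1 gene below (10.9%).

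In Cre- mice, where the cassette was not induced, the 2 muscles differed in 3 of the 9 members tested, beside 21.9% of all genes (edgeR, mean of 2.5 and 8.5 days in Cre-). Cnfn, among the 9, passed the count filter only through Cre+ libraries and had at most 4 reads in any Cre- library. Ppl was higher in EDL, at 0.855 to 2.72 FPKM with a median of 1.47 over the 6 Cre- EDL libraries of all days, against 0.479 to 1.41 FPKM and a median of 0.847 in Cre- SOL (log2 difference 1.05 ± 0.31, adjusted p = 0.0213). Krt19 was higher in EDL by 0.80 ± 0.27 (adjusted p = 0.0352). Evpl was lower in EDL by 1.58 on the log2 scale, from 31 to 52 reads in the 6 SOL libraries against 6 to 26 in EDL (adjusted p = 0.0254). The 6 SOL values of Evpl lay above all 6 EDL values, while the ranges of Ppl and Krt19 overlapped.

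Same-numbered libraries of the 2 muscles deviated together, so the fit was repeated with that number, taken as a mouse that gave both muscles, as a block. There Ppl gave adjusted p = 0.00190, Evpl 0.00330 and Krt19 0.0513, which ends the call for Krt19. By day, the Krt19 difference was 1.64 ± 0.40 at 2.5 days (adjusted p = 0.0130) and -0.03 ± 0.35 at 8.5 days (adjusted p = 0.963), as Cre- SOL went from 0.207 and 0.248 FPKM to 1.41 and 0.701 FPKM. The difference in Evpl was -1.05 ± 0.67 at 2.5 days (adjusted p = 0.331) and -2.11 ± 0.70 at 8.5 days (adjusted p = 0.0487). Ranked by median FPKM in Cre- EDL, Ppl (1.47) came first, followed by Sfn (0.754) and Krt19 (0.742), Lama3 (0.479), Cdh1 (0.209), Krt18 (0.0902), Krt8 (0.0360), Evpl (0.0251), Cnfn (0.0162) and Epcam (0.0101). The ranges of neighbours in this order overlapped throughout.

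The Cre- SOL libraries of 8.5 days stood apart in liver markers. The sum of 11 of them was 52.1 and 169 FPKM there, against 4.31 to 32.2 in the other Cre- SOL libraries. Krt8 and Krt18, which hepatocytes express, had 32 and 18 and 19 and 19 reads in these 2 libraries, against 1 or 2 and 4 to 7 in the other Cre- SOL libraries. In FPKM, Krt18 stood at 0.356 and 0.329 in these Cre- libraries and at 0.249 and 0.318 in Cre+ SOL of 8.5 days, where the liver sum was 6.01 and 10.1 FPKM. The part of other tissue in these values was not tested.

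Some markers of other epithelial cells were also higher in Cre+ EDL, while most of those looked at stayed at or under 3 reads. Msln, a surface protein of mesothelium, had 2433 and 1617 reads in Cre+ EDL at 2.5 days and 26 and 26 in Cre-, and the sum of 6 mesothelium markers was 24.5 and 18.7 FPKM against 0.281 and 0.278 (Msln log2 fold change 5.91 ± 1.41, adjusted p = 0.00795). Msln had 848 and 34 reads in Cre+ EDL at 8.5 days and 560 and 18 reads in Cre+ SOL at 8.5 days. The library with more Msln had more Krt8 in both pairs of 8.5 days and less Krt8 in Cre+ EDL of 2.5 days. Of the other 5 markers, Upk3b, Lrrn4, Wt1 and Bnc1 never passed 3 reads, and Upk1b had 21 and 100 reads at 2.5 days. Of 10 epidermis markers, 7 stayed at or under 3 reads in every library, with the basal keratins Krt5 at 0 and Krt14 at 2 at most. The epidermis sum was 9.10 and 5.96 FPKM in Cre+ EDL at 2.5 days and 3.11 and 3.37 FPKM in Cre-, nearly all of it Trp63 and Krt10. The part of mesothelial or epidermal cells in the members' values was not tested.

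The wider epithelial programme was read from 7 lists with 133 genes, members left out, of which 132 were in the table and 78 were tested. The lists were chosen with earlier results of these data known, so their calls are not an independent check. At 2.5 days 15 genes (19.2%) were higher and 4 (5.13%) lower in Cre+ EDL, beside 13.8% and 10.2% of all genes tested. At 8.5 days 10 (12.8%) were higher and 3 (3.85%) lower, beside 7.63% and 6.50%. Krt2, Krt7, Krt13, Grhl3 and Pkp1 passed the count filter only through Cre+ libraries, so nothing is read from the gap to all genes. Scaled by library size alone, 23 of the 78 were higher and 2 lower at 2.5 days, beside 4207 higher and 610 lower of all 15372 genes. The median log2 fold change of the 78 genes was 0.01 at 2.5 days and 0.14 at 8.5 days. Of the 78 genes, 59 were not called at 2.5 days and 65 at 8.5 days.

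Other keratins stood out by size. Of 18, only 6 passed the count filter, and 4 were higher at 2.5 days and 3 at 8.5 days. Krt2, Krt7 and Krt13 passed it only through Cre+ libraries, so nothing is read from these counts. Krt2, a keratin of the upper epidermis, had 151 and 62 reads in Cre+ EDL at 2.5 days and 859 and 60 at 8.5 days, against 0 in all 4 Cre- libraries (at least 69.2-fold and 236-fold higher with the controls together set at 3 reads). Its adjusted p was 0.0201 and 0.0109, up to 0.0866 with a library left out, since the call at 2.5 days was lost without replicate 1 of Cre+ EDL or either Cre- library and that at 8.5 days without Cre- EDL replicate 1 (0.0634). Krt7, a simple-epithelium keratin, had 400 and 2482 reads against 6 and 3 at 2.5 days and 518 and 304 against 3 and 5 at 8.5 days (log2 fold change 7.93 ± 1.10 and 6.07 ± 1.10, adjusted p = 0.000281 and 0.00309). Krt80 had 616 and 720 reads against 128 and 53, and then 4241 and 2316 against 131 and 107 (2.52 ± 0.54 and 4.19 ± 0.56, adjusted p = 0.00445 and 0.000461), with 0.0531 at 2.5 days without Cre- EDL replicate 2. Of these 3, Krt80 was higher at 8.5 than at 2.5 days in both replicates, unlike Krt8.

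Among 18 regulators of epithelial genes, 7 were tested and the same number, 3, was higher at each day. That is 42.9%, beside 13.8% of all genes tested at 2.5 days and 7.63% at 8.5 days. Grhl3, among those called, passed the count filter only through Cre+ libraries, so nothing is read from this gap. Grhl3, which drives the epidermal barrier, had 233 and 66 reads in Cre+ EDL at 2.5 days and 445 and 250 at 8.5 days, against 1 to 5 in Cre- (4.50 ± 0.59 and 7.18 ± 0.70, adjusted p = 0.000202 and 4.24e-05). Elf3 (3.04 ± 0.74 and 3.74 ± 0.67) and Trp63, the p63 gene of basal keratinocytes (1.23 ± 0.27 and 1.66 ± 0.27), were the other two. The Elf3 call at 2.5 days was lost without Cre+ EDL replicate 2 (adjusted p = 0.0905) or Cre- EDL replicate 1 (0.0780). The textbook drivers of the simple-epithelium state did not pass the filter: Grhl2 had 0 to 11 reads, Ovol2 0 to 3 and Esrp1 0 to 3 over the 24 libraries.

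Of 11 desmosome genes, 8 were tested, and 3 were higher at 2.5 days (37.5%, beside 13.8% of all genes tested) and 1 at 8.5 days (12.5%, beside 7.63%). Nothing is read from these shares, since Pkp1, called at both days, passed the count filter only through Cre+ libraries. Pkp1, a desmosomal plaque protein of stratified epithelia, had 245 and 539 reads against 3 and 0 at 2.5 days and 431 and 156 against 2 and 0 at 8.5 days (7.56 ± 1.06 and 7.45 ± 1.13, adjusted p = 0.000292 and 0.00102). It also passed the test in SOL, at 5.46 ± 0.97 (adjusted p = 0.0322) and 6.19 ± 0.99 (adjusted p = 0.0129). Of 30 adherens and tight junction genes, 24 were tested. At 2.5 days 2 were higher (8.33%, beside 13.8% of all genes tested) and 1 lower (4.17%, beside 10.2%). At 8.5 days 1 was higher (4.17%, beside 7.63%) and 1 lower (4.17%, beside 6.50%). Ctnna1, alpha-catenin, was higher at both days (0.84 ± 0.14 and 1.17 ± 0.14), and Cldn12 was lower (fell by 0.82 and by 0.86 on the log2 scale).

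Of 26 cornified-envelope genes, 8 were tested. At 2.5 days 1 was higher and 1 lower (12.5% each, beside 13.8% and 10.2% of all genes tested). At 8.5 days 0 were higher (beside 7.63%) and 1 lower (12.5%, beside 6.50%). Cst6, a protease inhibitor of the envelope, was lower at both days (fell by 1.72 and by 1.74, adjusted p = 0.000282 and 0.000484). All 11 hemidesmosome and laminin genes were tested. At 2.5 days 1 was higher (9.09%, beside 13.8%) and 2 lower (18.2%, beside 10.2%). At 8.5 days 2 were higher (18.2%, beside 7.63%) and 1 lower (9.09%, beside 6.50%). Cd151 was higher at both days (0.62 ± 0.15 and 0.72 ± 0.15) and Lama5, the alpha chain of the laminin-511 of most basement membranes, was lower (fell by 1.26 and by 0.92). The Cd151 call was lost at 2.5 days without Cre+ EDL replicate 2 (adjusted p = 0.0624) or Cre- EDL replicate 1 (0.0643) and at 8.5 days without Cre+ EDL replicate 1 (0.0600), and the Lama5 call at 8.5 days without Cre+ EDL replicate 2 or Cre- EDL replicate 1 (adjusted p up to 0.0735). Of 19 genes of epithelial surface and sorting, 14 were tested, with 1 higher at 2.5 days (7.14%, beside 13.8%).

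**Figure D4:**
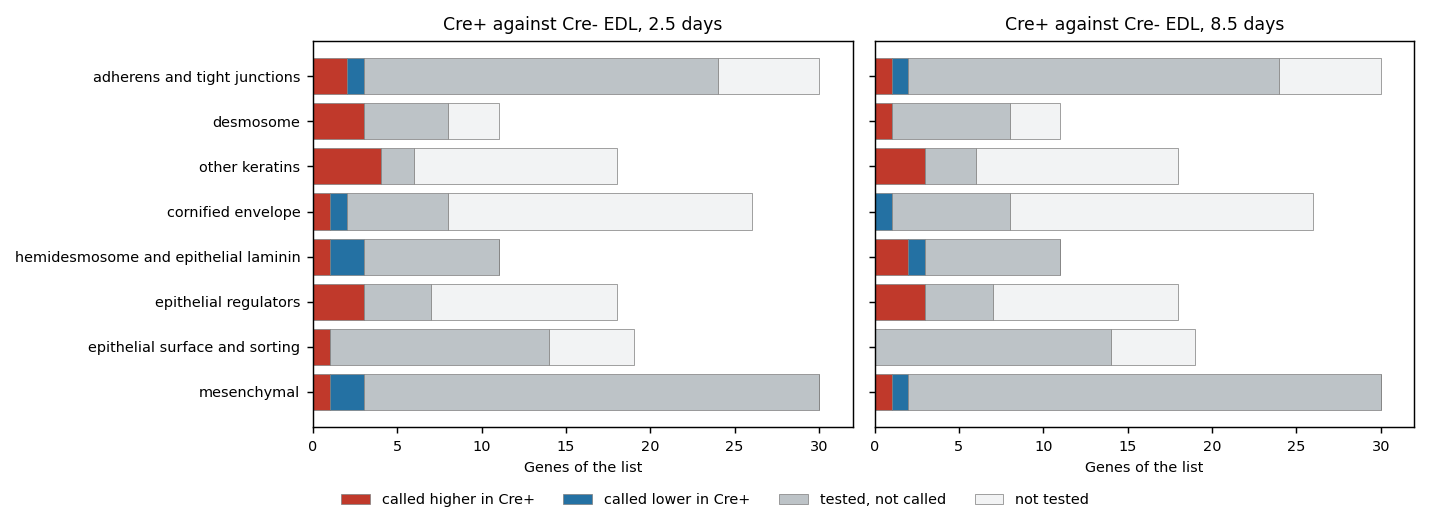
Number of genes of 7 epithelial lists and the mesenchymal list that were called higher (red) or lower (blue) in Cre+ EDL, tested without a call (grey) or not tested for low counts (white), at 2.5 days (left) and 8.5 days (right). Calls make up the larger part of the tested genes only for the other keratins (4 of 6) at 2.5 days. Krt2, Krt7 and Krt13 in that list passed the count filter only through Cre+ libraries.

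All 30 genes of the mesenchymal list were tested. Their values are of whole muscle, while the cassette was unblocked only in myofibres, and the cells behind them were not told apart. At 2.5 days 1 was higher (3.33%, beside 13.8% of all genes tested) and 2 lower (6.67%, beside 10.2%). At 8.5 days 1 was higher (3.33%, beside 7.63%) and 1 lower (3.33%, beside 6.50%). Zeb1, a repressor of Cdh1, was at 2720 and 3006 reads in Cre+ EDL at 2.5 days and at 2284 and 2042 in Cre- (log2 fold change 0.04 ± 0.11, adjusted p = 0.831). Vim (-0.24 ± 0.18, adjusted p = 0.349), Snai2 (-0.11 ± 0.21, adjusted p = 0.733) and N-cadherin, Cdh2 (-0.60 ± 0.39, adjusted p = 0.272), did not pass the test at 2.5 days, nor at 8.5 days (adjusted p = 0.931, 0.221 and 0.896). Scaled by library size alone, at 2.5 days Vim turned to 0.09 and Snai2 to 0.22, and Zeb1 went to 0.37 (adjusted p = 0.0380, under the size that a call needs), and at 8.5 days Vim turned to 0.15, Cdh2 to 0.08 and Zeb1 to 0.12. Tgfb3 was higher at both days (1.10 ± 0.13 and 1.75 ± 0.13), and Prrx1, a mesenchymal transcription factor, was lower (fell by 0.87 and by 1.00, adjusted p = 0.0125 and 0.0105). The Prrx1 call was lost at 2.5 days without Cre+ EDL replicate 2 (adjusted p = 0.145) or Cre- EDL replicate 1 (0.0679) and at 8.5 days without Cre+ EDL replicate 1 (0.121) or Cre- EDL replicate 1 (0.116).

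Across the 24 libraries, the genes whose log2(FPKM + 1) followed Evpl most closely among the 15469 genes searched were Ngef (Pearson r = 0.989), Tcf7 (0.988) and 2810408A11Rik (0.988), with Ngef running from 0.160 to 22.2 FPKM. Krt18 followed Olfml2a (0.919), Fbn2 (0.903) and Ptk7 (0.900), and Cdh1 followed Pdzph1 (0.892), Ddn (0.852) and Cfap100 (0.849). No gene was shared by the 3 sets. The libraries behind these values share muscle, day and genotype, and the levels of Cdh1 and Krt18 rest on few reads.

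The RefSeq table of promoters held 5 of the 10 genes (Epcam, Krt8, Krt18, Cnfn and Sfn), and Cdh1, Krt19, Evpl, Ppl and Lama3 were not in it. Within 250 bases before the start, CACCTG or its reverse CAGGTG was present in 4 of the 5 and in 17.1% of 27025 promoters. Krt8 and Krt18 held 1 box each, Sfn 1 and Epcam 2, so the box occurred both in Krt8, which stood far above the controls at 2.5 days, and in Krt18 and Epcam, which did not. GGGTGTG or its reverse was present in Cnfn alone and in 6.85% of promoters. CACGTG (Myc E-box, 6.05%), ATGCAAA (Oct4 octamer, 4.06%), ACCGGTT (Grhl2, 0.799%) and TGANTCA (AP-1, 6.87%) matched none of the 5 on either strand, and no matches overlapped. The Epcam promoter is shown for comparison (chr17:87635729-87635978, plus strand, RefSeq, GRCm38.p6), with both E2-boxes in capitals.
Epcam: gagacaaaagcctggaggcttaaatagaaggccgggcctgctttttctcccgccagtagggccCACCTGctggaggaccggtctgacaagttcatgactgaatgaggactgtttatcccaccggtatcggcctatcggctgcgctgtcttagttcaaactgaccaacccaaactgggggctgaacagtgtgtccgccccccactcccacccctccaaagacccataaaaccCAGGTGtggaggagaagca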

How the data were processed

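RNA-seq was made from EDL and SOL muscle of Cre+ and Cre- mice on doxycycline. The values are raw counts per gene as the authors deposited them: reads were aligned to mm10 with STAR 2.5.3a, and those uniquely aligned to RefSeq exons were counted with HOMER. Multi-mapping reads are absent from them. FPKM were computed here from counts, exon length and library total. Samples were grouped by the labels.

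The counts were tested in R 4.3.3 with edgeR 4.0.16 (quasi-likelihood, TMM, filterByExpr with a minimum count of 10, Benjamini-Hochberg over all genes tested). All 16 libraries of days 2.5 and 8.5 entered a joint fit (15372 genes, 9 of the 10 described) and all 24 for 5.5 days (15478 genes). Calls needed an adjusted p below 0.05 and a log2 fold change beyond 0.5 in size. SE is the log2 fold change divided by the root of F. The script was tested on simulated data. An exact permutation test of 2 against 2 cannot go below p = 0.333, so none was used. A library with no read still allows 3 reads.

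The 10 genes and all lists were chosen with earlier results of these data known. Named genes were the 10, the cassette, in each list the 3 largest changes per direction called at both EDL days, Lamb3 as a partner chain of Lama3, 7 textbook regulators and marks, the highest gene of each marker list, and the 3 genes most correlated with Cdh1, Krt18 and Evpl. Outside this rule, Upk1b, the other mesothelium and epidermis markers, Ttc39c and Ankrd29 were chosen with their values in view. A gene that the rule names is not reported here. The highest genes of the other marker lists were Acta1 (myofibre, 9527 to 33565 FPKM), Cyp2e1 (liver, 1.54 to 31.4), Pmp22 (Schwann, 32.9 to 109), Esrrb (pluripotency, 1.06 to 17.6) and Trp63 (epidermis, 1.19 to 7.96). The median log2 fold change of 8 Schwann markers in EDL was -0.83 at 2.5 days and -0.35 at 8.5 days. Of 15 pluripotency markers 4 were tested and 2 were lower in EDL at 2.5 days, beside 10.2% of all genes tested.

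Replicate numbers paired EDL with SOL (correlation of deviations 0.173 to 0.445 over 6 pairs of groups) but not Cre+ with Cre- (-0.169 to 0.0578). Alternatives were DESeq2 1.42.0, other scalings, filters and sets of libraries, the replicate block and each library left out.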

Additional observations from a re-analysis of the deposited data

Results flagged for a closer look

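The change in Cldn12 with the cassette differed between muscles at 2.5 days, by -0.82 (log2, EDL minus SOL, edgeR interaction, adjusted p = 0.0423): EDL gave -0.82 and SOL -0.01 for Cre+ over Cre-. The change in Tgfb3 differed at 8.5 days by 1.23 (adjusted p = 0.0152), at 1.75 in EDL and 0.52 in SOL. Both were flagged because the test of the difference between muscles passed.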

How the results depend on the processing

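No member was called in SOL by the reported fit. At 2.5 days DESeq2 called 2 (all genes: 181 higher and 184 lower of 13414) and DESeq2 on the 4 libraries 1 (278 and 257 of 13182). edgeR on the 4 libraries called 2 (72 and 14 of 14303) and edgeR without a filter 2 (90 and 19 of 19889). Library size alone called 1 (89 and 3 of 15372), all 24 libraries 1 (67 and 45 of 15478) and the replicate block 1 (51 and 5 of 15372). All of these calls were Evpl or Krt8. At 8.5 days DESeq2, DESeq2 on the 4 libraries and no filter called 1 (Evpl). All genes called there were 108 higher and 63 lower of 16842, 130 and 96 of 16302, and 73 and 62 of 19889. Leaving out a library left 1 in its group, so calls of members are not counted for those fits. Between control EDL and SOL there were 3 calls, beside 1662 genes higher and 1702 lower of 15372. They became 4 in edgeR with the 5.5 day libraries (Cdh1 gained, log2 1.08, adjusted p = 0.0124), beside 1799 and 2058 of 15478. DESeq2 called 2 (without Krt19), beside 1587 and 1747 of 16461. The fit of all 24 libraries gave 2 (without Evpl), beside 1567 and 1823 of 15478. With the replicate block by mouse there were 2 (without Krt19), beside 1728 and 1822 of 15372. At 2.5 days alone, an alternative chosen after seeing the data, 2 remained (Krt19 and Ppl), beside 1251 and 1209 of 15372.

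Library size alone shifted the median over all genes (log2) in EDL at 2.5 days from -0.05 to 0.28. It gave 23 epithelial genes higher and 2 lower, and 3 mesenchymal genes higher and 0 lower. Of all 15372 genes, 4207 were higher and 610 lower in that setting. Leaving out an EDL library left 1 library in its group, so calls of epithelial and mesenchymal genes are not counted for those fits. At 8.5 days edgeR on the 4 libraries gave 0 mesenchymal genes lower, beside 336 of all 14531 genes. The median change of the members in EDL at 2.5 days was 5.72 with a filter of 1 CPM, 3.44 with edgeR on the 4 libraries and 2.04 without a filter, where fewer or other members enter, and 0.36 (without Cre+ replicate 2) to 1.84 (without Cre- replicate 2); at 8.5 days it was 1.15 with a filter of 1 CPM. The replicate block changed no other count by over 1.5 times. Cnfn, Krt8 and Evpl kept a positive change in EDL at 2.5 and 8.5 days under every alternative, Lama3 at 2.5 days. The choice of genes used these libraries, so nothing is read from the kept sign. Depth limits Epcam (0 to 14 reads), Krt18 (2 to 22) and Cdh1 (10 to 96).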
